A study of Mus musculus with 3 samples.

Results

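The 60 cell cycle genes described here were taken from the gene table of an Asns knockdown experiment by matching listed gene symbols to Ensembl gene IDs. All 60 were found among the 57010 genes of the table. They comprised 14 G1 regulators, 17 replication genes and 29 G2/M genes. The experiment used MBT2, a mouse bladder cancer cell line. The 3 RNA-seq libraries came from cells stably transfected with a plasmid: a scramble control, shAsns#1 or shAsns#2. The last 2 carry short hairpin RNAs directed against Asns, the gene of asparagine synthetase, which makes asparagine from aspartate. The labels call the control a scramble plasmid, while the methods name a pLKO.1 vector plasmid as the MBT2 control of other experiments. Per the methods, the hairpins were delivered in the lentiviral vector pLKO.1 and stably carrying cells were selected with puromycin, so all 3 libraries share the vector and the selection. Each condition had 1 library, so a ratio between a hairpin and scramble compares libraries, its interval covers counting error only, and it has no replicate check. Both hairpin libraries were compared with the same scramble library, so any peculiarity of that library is carried into both ratios.

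Cells pass from G1 into DNA synthesis when D-type cyclins with Cdk4 and Cdk6, and then E-type cyclins with Cdk2, phosphorylate the retinoblastoma protein and release E2F transcription factors. Origins of replication are licensed in G1 by the origin recognition complex, Cdc6 and Cdt1, which load the Mcm helicase, and they fire with Cdc45, the GINS complex and the replicative polymerases. Genes for mitosis peak later, under the MuvB complex with B-Myb and FoxM1, and the anaphase-promoting complex then destroys cyclin B and other mitotic proteins.

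The library totals were 19326826 counts for scramble, 19167852 for shAsns#1 and 22915511 for shAsns#2, and 14003 genes had at least 10 counts in at least 1 library. Levels are given as CPM, counts scaled to the TMM-adjusted library size. Asns stood at 84.4 CPM with scramble, 33.5 with shAsns#1 and 27.7 with shAsns#2. Summed markers of epithelial and urothelial cells were at 10.7, 14.8 and 17.6 CPM, with 5 of the 14 passing the count filter and Krt5, Krt20, Upk1b and Upk3a at 0 counts in all 3 libraries. Of the 6 mesenchymal markers, all passed, and their sum was 3936, 2844 and 2237 CPM, most of it Vim. None of the 5 leukocyte markers passed the filter, with sums between 0.105 and 0.482 CPM. The labelled bladder cancer line was therefore low in the defining markers of urothelium in these libraries.

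Together the 60 genes took 0.989% of the counts in scramble, 1.04% in shAsns#1 and 1.07% in shAsns#2, and the lowest count of any member in any library was 290. All 60 passed the count filter. The counts of 32 members were whole numbers in every library. Those of the others, Ccne2, Gins2, Orc1, Mcm7, Cdc25c and Mki67 among them, were not, so part of their reads may be shared with other genes and their values are less certain. Levels of different genes were compared per length, as TPM, which divides counts by gene length and scales them to the library. Ube2c (398 TPM in scramble), Pcna (505 TPM) and Ccnd1 (339 TPM) led the G2/M, replication and G1 groups, and Cenpf, Orc1 and E2f2 had the lowest TPM of their groups in that library. Summed over a group, the G2/M genes stood at 2.10 times the TPM of the replication genes in scramble, 2.00 times in shAsns#1 and 2.06 times in shAsns#2. Against the G1 regulators, the G2/M sum was 2.83, 2.82 and 2.87 times as high, and the replication sum 1.35, 1.41 and 1.39 times. The balance of the phase groups within a library thus moved little between libraries, which is a description with no test.

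Promoters of these genes carry sequence elements named for the factors that read them, and those of 6 members are shown, chosen for a ratio far from scramble (Ube2c, Cdc20, Bub1, Mki67 and Ccne1) or for E2F matches (Mcm6). The promoter table of RefSeq (build GRCm38.p6) held a window for 45 of the 60 genes. The 250 bases before each start were searched on both strands for the letters of the CCAAT box. The searched letters of the cell cycle homology region element, CHR, were TTTGAA. Those of the E2F element were TTTGGCGC, TTTCGCGC or TTTCCCGC, and those of the E box were CACGTG. Each printed stretch reads 5′ to 3′ and stops before any GENCODE M21 exon, and capitals mark the matches. The stretch of Ube2c lies at chr2:164769679-164769897 on the plus strand, Cdc20 at chr4:118437353-118437593 on the minus strand, Bub1 at chr2:127831866-127832109 on the minus strand, Mki67 at chr7:135716380-135716629 on the minus strand, Mcm6 at chr1:128359706-128359955 on the minus strand and Ccne1 at chr7:38107535-38107740 on the minus strand. Ccne1 held none of the 4 motifs in its window.
Ube2c: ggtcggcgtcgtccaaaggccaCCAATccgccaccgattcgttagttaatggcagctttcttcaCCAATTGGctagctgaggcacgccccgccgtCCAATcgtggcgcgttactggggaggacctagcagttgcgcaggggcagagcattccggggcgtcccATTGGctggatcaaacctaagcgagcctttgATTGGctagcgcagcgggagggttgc
Cdc20: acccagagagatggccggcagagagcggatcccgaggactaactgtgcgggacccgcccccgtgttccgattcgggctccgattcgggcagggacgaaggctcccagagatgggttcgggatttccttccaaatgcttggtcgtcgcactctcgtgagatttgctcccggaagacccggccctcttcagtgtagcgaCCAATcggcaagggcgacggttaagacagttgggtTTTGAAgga
Bub1: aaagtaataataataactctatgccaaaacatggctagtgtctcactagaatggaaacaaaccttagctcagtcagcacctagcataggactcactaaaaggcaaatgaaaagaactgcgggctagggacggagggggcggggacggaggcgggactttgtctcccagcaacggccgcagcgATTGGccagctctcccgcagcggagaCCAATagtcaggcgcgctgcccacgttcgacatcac
Mki67: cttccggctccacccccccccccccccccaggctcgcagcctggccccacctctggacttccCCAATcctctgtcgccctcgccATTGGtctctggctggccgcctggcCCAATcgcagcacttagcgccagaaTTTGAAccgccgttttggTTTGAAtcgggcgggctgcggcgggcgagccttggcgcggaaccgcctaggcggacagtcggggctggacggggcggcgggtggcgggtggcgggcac
Mcm6: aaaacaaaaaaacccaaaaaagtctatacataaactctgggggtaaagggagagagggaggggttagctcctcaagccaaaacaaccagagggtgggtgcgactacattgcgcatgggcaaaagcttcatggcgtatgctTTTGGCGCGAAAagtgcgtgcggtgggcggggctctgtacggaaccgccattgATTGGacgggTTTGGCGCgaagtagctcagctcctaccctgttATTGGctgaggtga
Ccne1: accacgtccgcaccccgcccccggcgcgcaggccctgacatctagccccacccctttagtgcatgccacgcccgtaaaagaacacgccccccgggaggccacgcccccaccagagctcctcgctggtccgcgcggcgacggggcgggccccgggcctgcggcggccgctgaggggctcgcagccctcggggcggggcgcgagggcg

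A CCAAT box was present in 20 of the 23 G2/M genes with a window, in 9 of 13 replication genes and in 4 of 9 G1 regulators, against 41.0% of the 9758 kept genes with a window and 33.8% of all 32851 windows. The CHR letters were in 8 G2/M genes, 3 replication genes and 1 G1 regulator, against 13.3% of kept genes and 16.0% of all windows. An E2F match stood in 6 replication genes, 1 G2/M gene and 1 G1 regulator, against 3.49% of kept genes and 1.53% of all windows. The E box was found in 2 G1 regulators, 1 replication gene and 1 G2/M gene, against 9.87% of kept genes and 6.02% of all windows. In Ube2c the capitals mark 6 CCAAT matches, a pair of which overlap, and its CHR letters lie beyond the printed stretch. In Mcm6, 2 overlapping E2F matches form a single run of capitals. Members with the same element differed in their ratios: Mki67, with 2 CHR and 3 CCAAT matches, had log2 ratios of 0.44 and 0.37, while Cdc20, with 1 CHR and 2 CCAAT matches, 1 of them beyond the printed stretch, had -0.56 and -0.48. Over the 8 G2/M genes with CHR letters the median log2 ratio was -0.03 in shAsns#1 and -0.06 in shAsns#2, and over the other 15 it was 0.02 and -0.04. A match is a description of the letters and not of factor binding.

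Across the cell cycle genes, differences from scramble were small. By median, the G1 regulators lay below scramble, with a log2 ratio of -0.13 in shAsns#1 and -0.25 in shAsns#2. Their summed level did not show this clearly. Summed CPM was 1.00 and 0.96 times that of scramble, and summed TPM, which has no TMM scaling, was 1.02 and 1.09 times. The TPM sums of the replication genes were 1.07 and 1.13 times scramble, and those of the G2/M genes 1.02 and 1.11 times. Replication genes had medians of 0.06 and -0.03, and G2/M genes of 0.02 and -0.02. The median of all 14003 kept genes was 0.00 in both comparisons. The G1 regulators were below 0 in 11 of 14 genes with shAsns#1 and in 11 of 14 with shAsns#2, where all kept genes had 6988 and 7051 of 14003 below 0. Within shAsns#1 the G2/M median was 0.15 above the G1 median and the replication median 0.19 above it, and within shAsns#2 these differences were 0.23 and 0.22. These differences between groups do not depend on the scaling of the libraries. The medians of G2/M and replication genes differed by -0.03 and 0.01 in shAsns#1 and shAsns#2.

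**Figure D1:**
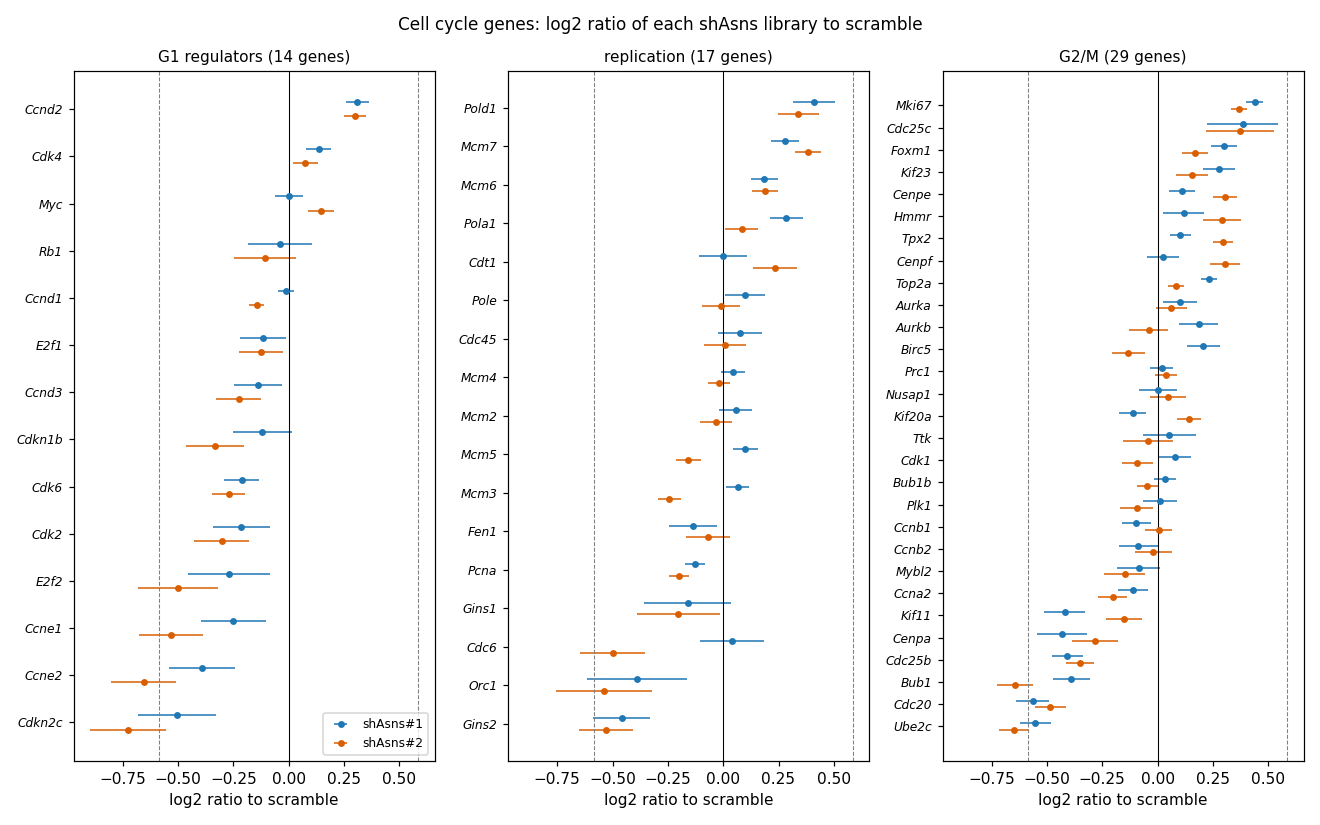
Log2 ratio of CPM to scramble (x axis) for each of the 60 genes (y axis) in shAsns#1 (blue) and shAsns#2 (orange), in 3 panels for G1 regulators, replication genes and G2/M genes. Bars are 95% counting intervals and dashed lines mark 1.5-fold: 11 of the 14 G1 regulators sit left of 0 in each library, while the G2/M genes spread from -0.56 to 0.44 in shAsns#1 and from -0.65 to 0.37 in shAsns#2.

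When both shAsns libraries were tested against scramble by edgeR (quasi-likelihood), no member was called, with adjusted p-values over all 14003 genes. Over all genes, edgeR called 1.14% higher and 1.51% lower. At an unadjusted p under 0.05, edgeR put 2 members higher and 10 lower, where it put 9.11% of all genes higher and 10.7% lower. DESeq2 put 1 member higher and 7 lower, against 4.56% and 5.73% of all genes. With limma-voom 4 members were higher and 10 lower, against 8.23% and 10.6%. Neither DESeq2 nor limma-voom called a member after adjustment. With the hairpins pooled as 1 group, the fit had 1 residual degree of freedom, and the spread of the single scramble library was taken to equal theirs. The lowest adjusted p of edgeR among the members was 0.064, for Ube2c.

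Counted by size, a member was taken as past 1.5-fold when its counting interval also lay off 0. In shAsns#1 0 of 60 members were past 1.5-fold higher and 0 lower, where 6.29% of all kept genes were higher and 6.38% lower. In shAsns#2 0 members were higher and 4 lower, namely Cdkn2c, Ccne2, Ube2c and Bub1, where 8.25% of all kept genes were higher and 8.63% lower. The 4 lower members of 60 are a share near that background, which also holds genes with far fewer counts than the members. At 1.2-fold, 8 members were higher and 11 lower in shAsns#1, against 15.8% and 16.6% of all kept genes, and 9 were higher and 15 lower in shAsns#2, against 18.3% and 21.3%. Between the hairpins, 0 members were higher and 0 lower in shAsns#2 than in shAsns#1, against 3.26% and 3.09% of all kept genes past 1.5-fold, and at 1.2-fold 2 were higher and 5 lower, against 8.51% and 10.8%. No member passed a log2 ratio of 1.5 in size in either hairpin library, the size used in the methods of the study. Of the 14003 kept genes, 579 and 658 did. That count takes the ratio alone, without the interval, and so can include genes with few counts.

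Among the G1 regulators, the 3 lowest by mean log2 ratio were Cdkn2c, Ccne2 and Ccne1. Cdkn2c (ENSMUSG00000028551, chr4:109660876-109667189 in GENCODE M21 on GRCm38), which encodes the Cdk4 and Cdk6 inhibitor p18, was at 34.0 CPM in scramble, 24.0 in shAsns#1 and 20.6 in shAsns#2. Both hairpin libraries lay below scramble. Its log2 ratios were -0.50 (95% counting interval -0.68 to -0.33) and -0.72 (-0.90 to -0.55), and edgeR gave -0.61 ± 0.16 (SE) with an adjusted p of 0.094.

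Cyclin E2, which with Cdk2 drives entry into S phase, showed the same order of libraries. Ccne2 (chr4:11191351-11204779) was at 45.6, 34.8 and 29.0 CPM in scramble, shAsns#1 and shAsns#2, with log2 ratios of -0.39 (-0.54 to -0.24) and -0.65 (-0.80 to -0.51) and an edgeR adjusted p of 0.13. Ccne1 (chr7:38097984-38107534), the gene of cyclin E1, was at 43.9, 36.9 and 30.3 CPM, with log2 ratios of -0.25 (-0.40 to -0.10) and -0.53 (-0.68 to -0.39) and an edgeR adjusted p of 0.24. In both cyclin E genes shAsns#2 was below shAsns#1 beyond counting error, by -0.26 (-0.42 to -0.11) for Ccne2 and -0.28 (-0.43 to -0.13) for Ccne1. Their kinase partner Cdk2 had log2 ratios of -0.21 and -0.30, and E2f2, an activating E2F factor, -0.27 and -0.50.

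The D-type cyclins, which couple growth signals to Cdk4 and Cdk6, did not lie on the same side of scramble. Ccnd1 was at 692, 686 and 627 CPM in scramble, shAsns#1 and shAsns#2, with log2 ratios of -0.01 (-0.05 to 0.02) and -0.14 (-0.18 to -0.11). Ccnd2 (chr6:127125162-127152193) was at 289, 358 and 356 CPM, above scramble in both hairpin libraries, with log2 ratios of 0.31 (0.26 to 0.36) and 0.30 (0.25 to 0.35) and an edgeR adjusted p of 0.32. Ccnd3 was at 78.6, 71.4 and 67.1 CPM, with log2 ratios of -0.14 and -0.23. Of the D-type cyclins, only Ccnd2 was thus above scramble in both libraries.

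Log2 ratios of the other G1 regulators ran from -0.33 to 0.15. Cdk4 was at 244, 268 and 258 CPM, with log2 ratios of 0.13 and 0.08, and Cdk6 had -0.21 and -0.27. Myc, a transcription factor that drives cell growth, was at 210 CPM in scramble, 210 in shAsns#1 and 232 in shAsns#2, so that only shAsns#2 was above scramble beyond counting error, at 0.15 (0.09 to 0.21). Cdkn1b, which encodes the Cdk inhibitor p27, had log2 ratios of -0.12 and -0.33, the activator E2f1 had -0.12 and -0.13, and the retinoblastoma gene Rb1 had -0.04 and -0.11 with intervals that hold 0.

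**Figure D2:**
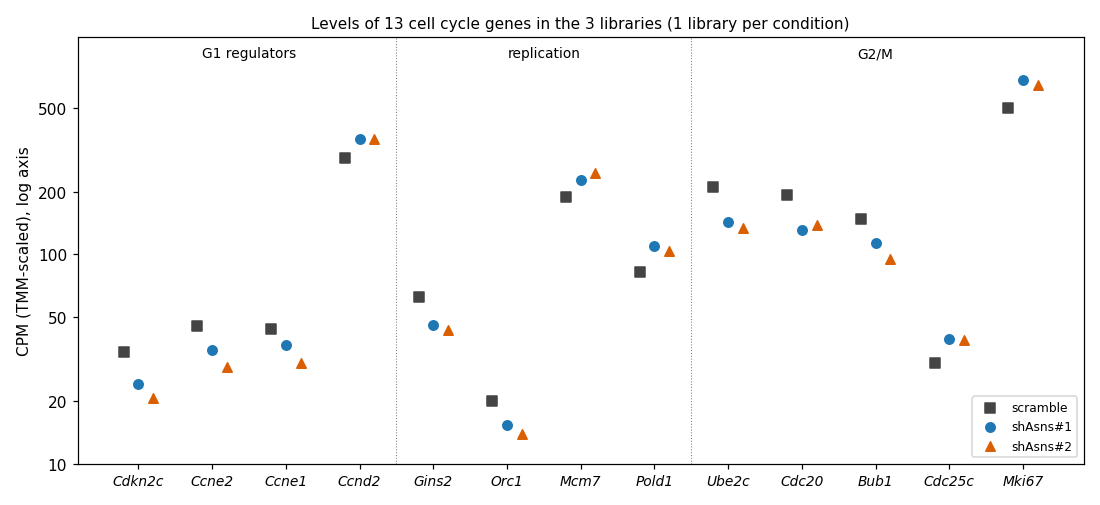
Level of 13 members (x axis, grouped by phase) in TMM-scaled CPM on a log axis, with 1 point per library: scramble (squares), shAsns#1 (circles) and shAsns#2 (triangles). Cdkn2c, Ccne2, Ccne1, Gins2, Orc1, Ube2c, Cdc20 and Bub1 have scramble as their highest point, and Ccnd2, Mcm7, Pold1, Cdc25c and Mki67 have it as their lowest.

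The replication genes held members on both sides of scramble, with 11 of 17 above 0 in shAsns#1 and 6 of 17 in shAsns#2. The 3 lowest by mean log2 ratio were Gins2, Orc1 and Cdc6. Gins2 (chr8:120578633-120589304), a subunit of the GINS complex of the replicative helicase, was at 62.9 CPM in scramble, 45.7 in shAsns#1 and 43.6 in shAsns#2. Its log2 ratios were -0.46 (-0.59 to -0.33) and -0.53 (-0.65 to -0.41), with an edgeR adjusted p of 0.099. Its partner Gins1 had -0.16 and -0.20.

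Orc1 (chr4:108579423-108614833), the largest subunit of the origin recognition complex, was at 19.99, 15.3 and 13.8 CPM, from 373, 290 and 329 counts. The log2 ratios were -0.39 (-0.62 to -0.16) and -0.54 (-0.76 to -0.32), with an edgeR adjusted p of 0.18. Cdc6 (chr11:98907801-98923940), which loads the helicase with Orc1 and Cdt1, was the member that differed most between the hairpins. It was at 42.2 CPM in scramble, 43.4 in shAsns#1 and 29.9 in shAsns#2. Only the shAsns#2 library stood apart, with a log2 ratio to scramble of -0.50 (-0.65 to -0.35) and to shAsns#1 of -0.54 (-0.69 to -0.39). Cdt1 was at 73.3 CPM with scramble and with shAsns#1 and at 86.2 with shAsns#2, so it lay on the other side of scramble from Cdc6 in shAsns#2.

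The 6 subunits of the Mcm helicase did not move as 1 unit. Mcm7 (chr5:138164583-138172422) was at 187, 227 and 244 CPM, with log2 ratios of 0.28 (0.22 to 0.34) and 0.38 (0.32 to 0.44) and an edgeR adjusted p of 0.26. Mcm6 was at 210, 239 and 240 CPM, with log2 ratios of 0.19 (0.12 to 0.25) and 0.19 (0.13 to 0.25). Mcm2 and Mcm4 had intervals that hold 0 in both libraries. Mcm3 and Mcm5 were slightly above scramble in shAsns#1, at 0.07 and 0.10, and below it in shAsns#2, at -0.24 and -0.16.

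Catalytic subunits of all 3 replicative polymerases are among the members. Pold1 (chr7:44532746-44548849), the catalytic subunit of DNA polymerase delta, was at 82.2, 109 and 104 CPM. Its log2 ratios were 0.41 (0.31 to 0.51) and 0.34 (0.25 to 0.43), the highest mean of both hairpins among the replication genes, with an edgeR adjusted p of 0.17. Pola1, the catalytic subunit of polymerase alpha, had 0.29 and 0.08, and Pole, that of polymerase epsilon, had 0.10 and -0.01. Pcna, the sliding clamp that holds the polymerases on DNA, was at 418, 383 and 364 CPM, with log2 ratios of -0.13 (-0.17 to -0.08) and -0.20 (-0.24 to -0.16). Fen1, the nuclease that trims Okazaki fragments, had -0.14 and -0.07, and Cdc45 had 0.07 and 0.01.

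G2/M genes lay on both sides of scramble, with 18 of 29 above 0 in shAsns#1 and 14 of 29 in shAsns#2. Counting intervals lay wholly above 0 in 12 of them with shAsns#1 and 10 with shAsns#2, and wholly below 0 in 9 and 11. Over all kept genes, many of them with fewer counts and so wider intervals, 24.9% and 26.3% were above 0 and 26% and 30.5% below. The 3 lowest by mean log2 ratio were Ube2c, Cdc20 and Bub1. Ube2c (ENSMUSG00000001403, chr2:164769898-164778822), the ubiquitin-conjugating enzyme of the anaphase-promoting complex, was at 210 CPM in scramble, 143 in shAsns#1 and 134 in shAsns#2. Both hairpin libraries lay below scramble, with log2 ratios of -0.55 (-0.62 to -0.48) and -0.65 (-0.72 to -0.58). For Ube2c edgeR gave -0.60 ± 0.13 (SE), with an adjusted p of 0.064 that became 0.043 when only genes with at least 10 counts in every library were tested.

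Cdc20 (chr4:118432901-118437352), the activator of the same complex, was at 193, 131 and 138 CPM. Its log2 ratios were -0.56 (-0.64 to -0.49) and -0.48 (-0.55 to -0.42), and edgeR gave -0.52 ± 0.13 (SE) with an adjusted p of 0.085. Bub1 (chr2:127801122-127831865), a kinase of the spindle checkpoint that holds Cdc20 in check, was at 148, 113 and 94.7 CPM. Here shAsns#2 was also below shAsns#1, at -0.25 (-0.34 to -0.17). The log2 ratios to scramble were -0.39 (-0.47 to -0.31) and -0.64 (-0.72 to -0.56), with an edgeR adjusted p of 0.12. The related checkpoint gene Bub1b was at 0.03 and -0.05 with intervals that hold 0, and the checkpoint kinase Ttk at 0.05 and -0.04. Cdc25b, a phosphatase that activates Cdk1, had -0.41 and -0.35, Cenpa, the histone of centromeres, had -0.43 and -0.28, and Kif11, the motor that separates spindle poles, had -0.42 and -0.15.

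At the other end of the G2/M group, Mki67 (chr7:135689784-135716361), the gene of the proliferation marker Ki-67, was at 503 CPM in scramble, 682 in shAsns#1 and 649 in shAsns#2. Its log2 ratios were 0.44 (0.40 to 0.48) and 0.37 (0.33 to 0.41), with an edgeR adjusted p of 0.26. Cdc25c, a phosphatase of the same family as Cdc25b that also activates Cdk1, was at 30.1, 39.3 and 39.0 CPM. Its log2 ratios were 0.38 (0.22 to 0.54) and 0.37 (0.22 to 0.53), with an edgeR adjusted p of 0.19. Cdc25b and Cdc25c therefore lay on opposite sides of scramble in both libraries, and neither passed the edgeR test. Their relative Cdc25a, of the further lists, had log2 ratios of -0.21 and -0.12.

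The 2 transcription factors of the mitotic genes among the members lay on opposite sides of scramble, Foxm1 above it and Mybl2 slightly below it. Foxm1 was at 221, 272 and 249 CPM, with log2 ratios of 0.30 (0.24 to 0.36) and 0.17 (0.11 to 0.23) and an edgeR adjusted p of 0.43. Mybl2, the gene of B-Myb, was at 92.8, 87.5 and 83.7 CPM. Its log2 ratios were -0.09 (-0.18 to 0.01) and -0.15 (-0.24 to -0.06), so only the shAsns#2 interval lay below 0. The mitotic cyclins and their kinase lay between -0.20 and 0.08. Ccnb1, cyclin B1, was at 210, 197 and 211 CPM, with log2 ratios of -0.10 (-0.16 to -0.03) and 0.00 (-0.06 to 0.07), and Ccnb2 was at -0.09 and -0.02 with intervals that hold 0. Cdk1 was at 0.08 and -0.09, Ccna2, cyclin A2, at -0.11 and -0.20, and the mitotic kinases Plk1 at 0.01 and -0.09, Aurka at 0.10 and 0.06 and Aurkb at 0.19 and -0.04.

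Spindle and chromosome genes also varied between the hairpins. Cenpf and Cenpe, which act at the kinetochore, had log2 ratios of 0.02 and 0.11 in shAsns#1 and 0.30 and 0.30 in shAsns#2. Tpx2 and Hmmr, which organise spindle microtubules, had 0.10 and 0.12 in shAsns#1 and 0.30 and 0.29 in shAsns#2. Top2a, the topoisomerase that untangles sister chromatids, had 0.23 and 0.08, and Kif23, a motor of the central spindle, 0.28 and 0.16. Prc1 and Nusap1, which bundle microtubules, had intervals that hold 0 in both libraries. Kif20a and Birc5, both of cytokinesis, had log2 ratios of opposite sign in the 2 libraries, at -0.11 and 0.14 for Kif20a and 0.21 and -0.13 for Birc5.

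**Figure D3:**
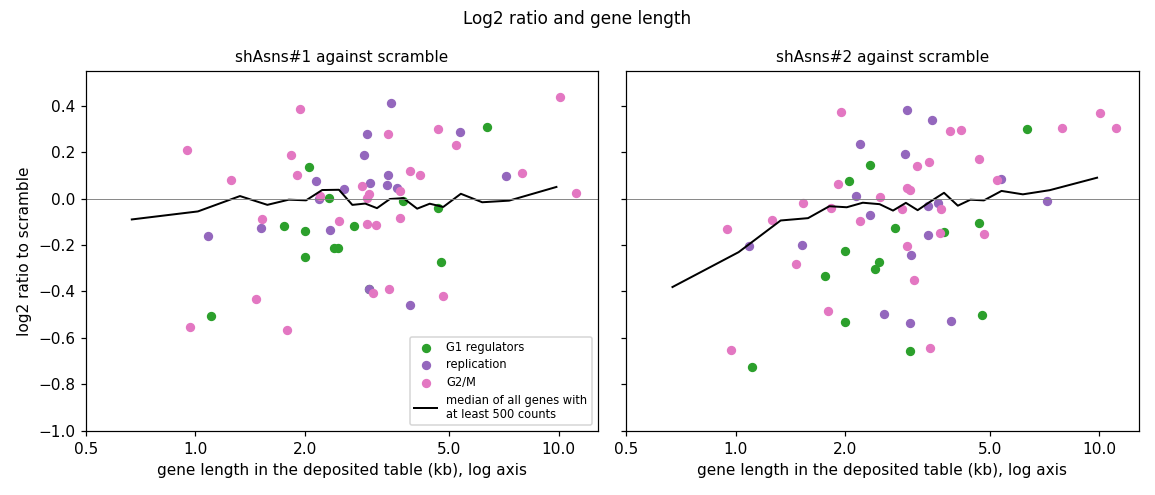
Log2 ratio to scramble (y axis) against gene length in kilobases on a log axis (x axis) for the 60 members in shAsns#1 (left) and shAsns#2 (right), coloured by phase group, with the median of all genes that had at least 500 counts drawn as a line over 20 length bins. In shAsns#2 the line starts below 0 among the shortest genes and ends above it among the longest, and in shAsns#1 it stays closer to 0.

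Across the kept genes, gene length moved with the ratios mainly in shAsns#2, and its part in the results was not tested. Across the 7595 kept genes with at least 500 counts in a library, Spearman's rho of the log2 ratio with length was 0.03 in shAsns#1, 0.21 in shAsns#2 and 0.31 for shAsns#2 against shAsns#1. Across the 29 G2/M genes it was 0.29 and 0.51 in shAsns#1 and shAsns#2. It was 0.38 and 0.08 across the 17 replication genes and 0.28 and 0.37 across the 14 G1 regulators. Over all 60 members it was 0.31 and 0.35, so among the members it was not particular to shAsns#2. These correlations are across genes that share their libraries, and genes are not independent replicates. The 15 G2/M genes of at least 3000 bases had a median log2 ratio of 0.03 in shAsns#1 and 0.14 in shAsns#2, and the 14 shorter ones had 0.01 and -0.07. With the running median of all genes of like length subtracted, a step chosen after the data were seen, Ube2c stood at -0.49 and -0.40, Cdkn2c at -0.47 and -0.54, Bub1 at -0.39 and -0.63 and Mki67 at 0.39 and 0.28. Past 1.5-fold lower in shAsns#2 there were then 2 members, Ccne2 and Bub1, in place of 4.

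The rest of the pathway was read from 9 further lists of cell cycle genes, with 128 genes kept and none shared with the 60. Of these 128, edgeR called 0 higher and 2 lower, both among other cyclins and Cdk regulators, a share near the 1.14% higher and 1.51% lower over all genes. These counts changed with the settings: edgeR called 5 higher and 7 lower with total counts and 3 higher and 7 lower without the filter. Calls over all genes also rose, to 740 higher and 517 lower of 14003 with total counts and 700 and 856 of 23533 without the filter. Ccng2, an atypical cyclin linked to cell cycle arrest, was at 93.6 CPM in scramble, 55.3 in shAsns#1 and 51.7 in shAsns#2, and it passed the edgeR test with an adjusted p of 0.025 and a mean log2 ratio of -0.81. Wee1, the kinase that holds Cdk1 inactive, was at 41.8, 24.7 and 26.2 CPM and passed the edgeR test with an adjusted p of 0.047 and a mean log2 ratio of -0.71. The call of Wee1 was lost with DESeq2 size factors (edgeR adjusted p = 0.068), DESeq2 (0.12) and limma-voom (0.070), and that of Ccng2 was kept in each of these.

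By list, the CDK inhibitors and pocket proteins had the lowest medians, at -0.33 in shAsns#1 and -0.82 in shAsns#2 over 7 genes, with 5 of 7 below 0 in each. The shAsns#2 median is the value of Cdkn1c, which had 28, 16 and 20 counts, and without that gene the medians were -0.29 and -0.53, a step added after the data were seen. None of the 7 was called by edgeR, whose lowest adjusted p there was 0.062, for Cdkn1a, the gene of p21. Cdkn1a was called by DESeq2 (adjusted p = 0.034) and by edgeR with 10 counts in every library (0.038), with total counts (0.0030) and without the filter (8.5e-05). Cdkn2a and Cdkn2d were called by edgeR with total counts and without the filter only. Cdkn2b had a log2 ratio of 0.43 in shAsns#2 and Rbl1 of 0.05. Cdkn1a was at 155 CPM with scramble, 104 with shAsns#1 and 82.8 with shAsns#2. The list of E2F, DP and MuvB factors had medians of -0.12 and -0.18 over 12 genes, and that of other cyclins and Cdk regulators -0.13 and -0.26 over 13. The 33 other replication factors had 0.08 and 0.05, the 25 kinetochore and spindle checkpoint genes 0.02 and -0.07, the 16 genes of the anaphase-promoting complex and its regulators 0.01 and -0.04, the 8 condensins 0.02 and -0.10, the 8 other mitotic kinesins 0.10 and 0.04, and the 6 genes of nucleotide supply for S phase 0.14 and -0.13. The list median of the anaphase-promoting complex was thus near that of all genes, but its genes differed. In shAsns#2, 7 of the 16 had intervals wholly below 0 and 3 wholly above, against 30.5% and 26.3% of all kept genes. Its subunit Anapc13 was at -0.05 in shAsns#1 and -0.73 in shAsns#2. The partners Ube2c and Cdc20 lay below the list median in both libraries, though not below Anapc13 in shAsns#2.

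**Figure D4:**
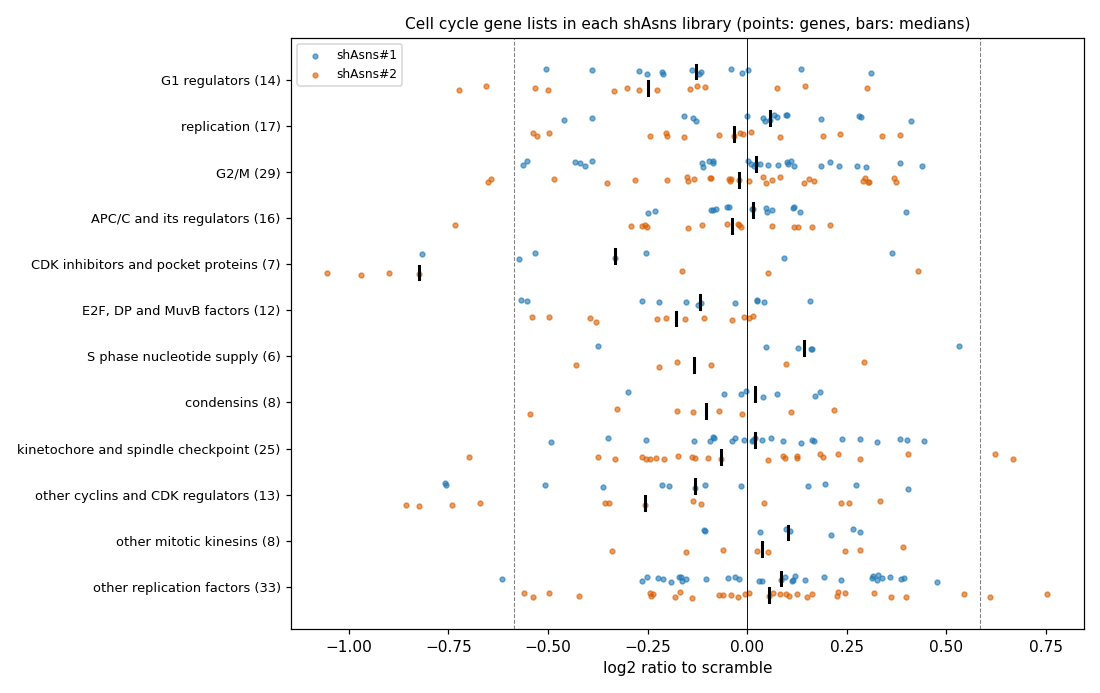
Log2 ratio to scramble (x axis) of each gene in the 3 phase groups and 9 further cell cycle lists (y axis, with the number of genes), for shAsns#1 (blue) and shAsns#2 (orange). Black bars are medians and dashed lines mark 1.5-fold: the bar of the CDK inhibitors and pocket proteins lies at -0.33 and -0.82, and those of the replication and G2/M genes lie between -0.03 and 0.06.

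Compared directly and with TMM scaling, shAsns#2 had median log2 ratios of -0.09 for G1 regulators, -0.07 for replication genes and -0.04 for G2/M genes, against shAsns#1, where all kept genes had 0.00. The sign of the latter 2 depended on the scaling, since with total counts the 3 medians were -0.02, 0.00091 and 0.03. With TMM scaling, in 13 of the 14 G1 regulators shAsns#2 was below shAsns#1, Myc being the exception. The interval lay wholly below 0 in 7 of these 14, against 3004 of the 14003 kept genes. Lower values in shAsns#2 were not particular to G1. They were also found in 13 of 17 replication genes and in 42 of all 60 members, against 6999 of the 14003 kept genes. Members ranged from -0.54, for Cdc6, to 0.28, for Cenpf. This comparison does not use the scramble library, and it has no replicate check either.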

How the data were processed

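MBT2 RNA was sequenced in 3 libraries: scramble, shAsns#1 and shAsns#2. The authors deposited expected counts per gene, unscaled, with gene lengths in the file. Of the values above 0, 32.6% to 33.0% were not whole, and 32 of the 60 members were whole in every library, and counts of the others may include reads shared out among genes. The submitters' processing notes name Bowtie 0.12.2, with no role. Counter, build and annotation: not given in the sources used here. In the paper's methods are a TruSeq kit, DMEM and a FastPure RNA kit, and the labels give RPMI-1640 and TRIzol.

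Symbols came from a separate gene name reference, matched by Ensembl ID for 52029 genes, and coordinates came from GENCODE M21 (GRCm38) by the same ID. Members and lists were chosen with earlier results of these data known. Of 13 E2F, DP and MuvB factors, 12 were matched. Counts were rounded, and a gene was kept if any library held at least 10. Log2 ratios were taken with TMM sizes and a prior count of 0.5, with exact conditional binomial (Clopper-Pearson) 95% intervals on the counts. edgeR 4.0.16 (glmQLFit, glmQLFTest, Benjamini-Hochberg, adjusted p under 0.05) compared the 2 shAsns libraries with scramble at a biological coefficient of variation of 11.6%. The SE given beside an edgeR log2 ratio is not an output of edgeR. It was derived as the size of that ratio over the square root of the F statistic of the quasi-likelihood test. TPM was computed from the counts and deposited lengths. Genes given in full were those past 1.5-fold, the 3 highest and 3 lowest of each phase group by mean log2 ratio, and 10 set genes (Ccnd1, Ccnd2, Ccnd3, Ccne1, Ccne2, Pcna, Mki67, Ccnb1, Foxm1 and Mybl2); from the further lists, genes called by edgeR or past 1.5-fold in both hairpin libraries. Other genes named were chosen after their values were seen. Alternatives were DESeq2 size factors, total counts, other filters, folds and prior counts, DESeq2 1.42.0, limma 3.58.1 (voom) and 2 steps added after seeing the data, subtraction of the length trend in 20 bins and leaving out Cdkn1c. Other software was Python 3.11.15, R 4.3.3, matplotlib 3.10.9, pandas 2.3.3, scipy 1.17.1 and numpy 2.4.6.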

Additional observations from a re-analysis of the deposited data

Results flagged for a closer look

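With TMM scaling, in 5 members the 2 hairpin libraries lay on opposite sides of scramble, each with a counting interval off 0. The difference between hairpins was not tested because each has 1 library. The share of all genes that meet this condition was not counted, so the 5 cannot be set against a background. By sign alone, the hairpins were on the same side in 45 of 60 members and in 10891 of the 14003 kept genes. With total counts the median of all genes in shAsns#2 was 0.11, which is larger in size than the Cdk1 ratio there, so these flags depend on the scaling. Mcm3 and Mcm5, subunits of the replicative helicase, had log2 ratios of 0.066 and 0.101 in shAsns#1 and -0.244 and -0.159 in shAsns#2. Cdk1, the mitotic kinase, had 0.078 and -0.092. Birc5, the gene of survivin, had 0.207 in shAsns#1 and -0.133 in shAsns#2. Kif20a, a kinesin of cytokinesis, lay the other way round, with -0.113 in shAsns#1 and 0.142 in shAsns#2.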

How the results depend on the processing

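With total counts in place of TMM, the median of all genes moved to 0.04 in shAsns#1 and 0.11 in shAsns#2, and the shAsns#2 medians of replication and G2/M genes to 0.077 and 0.091, so their sign depends on the scaling. The G1 median in shAsns#2 became -0.14, and for shAsns#2 against shAsns#1 it was -0.016, or -0.15 over members with whole counts. The G2/M median of shAsns#2 against shAsns#1 became 0.034, members past 1.5-fold lower in shAsns#2 were 1, and edgeR called 1 G2/M gene lower, Ube2c. With the length trend subtracted, chosen after the data were seen, the G2/M median in shAsns#2 was 0.060 and members past 1.5-fold lower were 2. At 1.2-fold, members higher and lower were 8 and 11 in shAsns#1, 9 and 15 in shAsns#2, and 2 and 5 for shAsns#2 against shAsns#1, where all genes had 15.8% and 16.6%, 18.3% and 21.3%, and 8.51% and 10.8%. At 2-fold, 0 were lower in shAsns#2. Without the filter, edgeR called 2 G1 regulators, 1 replication gene and 3 G2/M genes lower. Requiring 10 counts in each library, it called 1 G2/M gene lower, Ube2c, against 304 of 12548 genes. Over all 14003 genes edgeR called 160 higher and 211 lower, 87 and 122 with DESeq2 size factors, and 740 and 517 with total counts. DESeq2 called 136 and 183 of these genes, and limma-voom 55 and 117. Without the filter edgeR called 700 and 856 of 23533 genes, and with 10 counts in every library 199 and 304 of 12548. In the further lists edgeR called 0 genes higher and 2 lower, but 0 and 1 with DESeq2 size factors, 5 and 7 with total counts, 3 and 7 without the filter and 0 and 3 with 10 counts in each library, DESeq2 called 0 and 2, and limma-voom 0 and 1. Over members with whole counts and with the length trend subtracted, G2/M minus G1 medians were 0.23 and 0.15 in shAsns#1 and 0.28 and 0.28 in shAsns#2, and replication minus G1 medians 0.24 and 0.18, and 0.30 and 0.19. The G2/M minus replication median in shAsns#2 became -0.03 and 0.09, so its sign depends on the members used. For shAsns#2 against shAsns#1 it became -0.02 and 0.08, and replication minus G1 0.08 and -0.0043. No paired analysis was possible because each group has 1 library. Leaving out a shAsns library leaves 1 against 1 with no residual degree of freedom, so the log2 ratio of the other hairpin stands in. The depth limits single members little, since the lowest count was 290, and the number of libraries limits every comparison.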
